A study of Homo sapiens with 9 samples.

Results

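The 42 genes described here are MYC and 41 genes whose products make ribosomes: RNA polymerase I and its factors, abundant nucleolar proteins, the proteins of small nucleolar RNA particles, and assembly factors of the small and large ribosomal subunits. They were taken from a list of gene symbols, matched to gene identifiers through the symbols of the authors' table, and make up 42 of the 64253 gene identifiers counted. The list was not computed from a measured value of these samples, but it was chosen with earlier results of these data known. 41 of the 42 passed the low-count filter and were among the 16561 genes tested. RRN3 did not pass, with 2 to 12 reads per library.

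RNA was sequenced in 9 libraries of IMR90, a line of human fetal lung fibroblasts with a limited number of divisions in culture, with 3 libraries, named a, b and c, in each of 3 groups. Control cells carried the pLKO.1 vector without a targeting hairpin, which the labels describe as empty in one field and as carrying GFP in another. The shRRM2 cells, labelled as senescent, carried a short hairpin against RRM2, which encodes a subunit of ribonucleotide reductase and so serves deoxyribonucleotide supply. The shRRM2/shp16 cells, labelled as bypassing senescence, carried that hairpin and, added 24 hours later, a hairpin against p16, a product of CDKN2A that inhibits cyclin D kinases. Cells of every group were at population doubling 30, were kept at 2% oxygen and were selected for 7 days with puromycin at 3 µg/mL. A second infection at 24 hours is listed for every group, control and shRRM2 included. The labels name each hairpin by its target alone, and cells with the p16 hairpin without the RRM2 hairpin were not analysed here. They do not say whether the replicates were separate infections or dishes, so p-values cover the spread between these libraries, which may be technical.

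Gene counts summed to between 15770895 (shRRM2 a) and 24873291 (control a) per library, and values are given in CPM (read counts scaled to a common total) after scaling each library with a TMM factor. RRM2, the targeted gene, was at 481, 491 and 484 CPM in control libraries a, b and c, at 59.98, 63.2 and 63.2 in shRRM2 and at 181, 175 and 176 in shRRM2/shp16. It was thus 7.81-fold lower in shRRM2 than in control but 2.85-fold higher in shRRM2/shp16 than in shRRM2 (edgeR adjusted p = 7.92e-34). The p16 hairpin and this weaker knockdown of RRM2 cannot be told apart in the comparison of those groups. CDKN2A fell from 6.50 ± 0.464 CPM (SD, n = 3) in shRRM2 to 4.28 ± 0.321 in shRRM2/shp16, a log2 change of -0.60 ± 0.13 (SE, edgeR adjusted p = 7.01e-05). The gene count does not separate the p16 transcript from the other transcript of CDKN2A. The share of uniquely aligned reads that fell in no gene was 17.6% to 18.9% in control, 27.7% to 28.8% in shRRM2 and 23.5% to 24.4% in shRRM2/shp16, and the part of this difference in the results below was not tested. In bulk RNA, fewer cells expressing a gene and less of its RNA per cell cannot be told apart. Because values are scaled to a common total, a change in the total RNA of a cell would not show in them.

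MYC is a transcription factor that pairs with MAX and binds the E-box, the letters CACGTG, and it is known for raising the transcription of genes for ribosome production and cell growth. Ribosomes start in the nucleolus, where RNA polymerase I copies the ribosomal DNA into a precursor that box C/D and H/ACA particles modify. Processing complexes then cut the precursor, and separate sets of assembly factors build the small and the large subunit. Nucleoli are known to change in size and number in senescent fibroblasts, and ribosome production is usually high in dividing cells.

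The E-box is the sequence that MYC is known to bind, so its presence was counted in RefSeq promoter windows (GRCh38.p14) of 300 bases, from 250 before to 50 after a start site. 36 of the 42 genes had such a window. CACGTG, which reads alike on both strands, was in at least 1 window of 16 of these 36 genes (44.44%). It was in a window of 12.36% of the 10361 tested genes that had one, and of 8.77% of all 27305 genes with a window. These shares are a description, and a match is not evidence of binding. Around the E-box of EBNA1BP2, LYAR and NAT10 the sequences below read 5′ to 3′ on the gene's strand, with the E-box in capitals. They were chosen as the genes with an E-box upstream of a window's RefSeq start site whose RNA was lowest in shRRM2/shp16 relative to control.
EBNA1BP2, chr1:43172790-43172819, minus strand: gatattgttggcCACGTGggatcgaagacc
LYAR, chr4:4290068-4290097, minus strand: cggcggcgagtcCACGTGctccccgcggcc
NAT10, chr11:34105602-34105628, plus strand: aatgcgcttgcgCACGTGctgtctacc
The E-box began 237 bases before the RefSeq start site of its window in EBNA1BP2, 64 in LYAR and 15 in NAT10. On their strands the GENCODE genes begin at 43270936 (EBNA1BP2), 4290169 (LYAR) and 34105602 (NAT10). Each printed stretch thus lies inside its GENCODE gene, and upstream refers to that RefSeq start site alone. Another window of LYAR held no E-box. In another window of EBNA1BP2 an E-box began at position 42 after a different annotated start site. Whether this is the same E-box was not checked.

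RNA of these genes was lower in shRRM2 than in control nearly throughout. 38 of the 41 tested genes fell and 0 rose at an edgeR adjusted p under 0.05, where 31.8% of all tested genes were lower, 29.0% higher and 60.9% called in either direction. No member was higher in edgeR at an unadjusted p under 0.05 either (0 genes), and DESeq2 and limma on RPKM called 0 higher. All 41 log2 fold changes were below 0 in edgeR and DESeq2, and 40 of 41 in limma. The fitted log2 fold changes ran from -0.82 to -0.05 with a median of -0.49, and the median over all 16561 tested genes was 0.00. POLR1C, RRP12 and BRIX1 were the 3 that did not pass.

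In shRRM2/shp16 against shRRM2, 28 members rose, 3 fell and 10 did not pass. Of all tested genes 31.9% were higher, 29.1% lower and 61.1% called. The median log2 fold change of the members was 0.21, with a range from -0.44 to 0.80, and that of all tested genes was 0.01.

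In shRRM2/shp16 against control, 29 members were lower, 3 higher and 9 did not pass. Of all tested genes 32.4% were lower, 30.0% higher and 62.4% called. The median of the members was -0.27, with a range from -1.17 to 0.31, against 0.01 over all tested genes. Each group enters a pair of these comparisons, so they share libraries, and their values are set side by side without a test between them. The summed level of the 42 genes was 3689 to 3795 CPM in control, 2626 to 2734 in shRRM2 and 3029 to 3058 in shRRM2/shp16, and the ranges did not overlap.

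**Figure D1:**
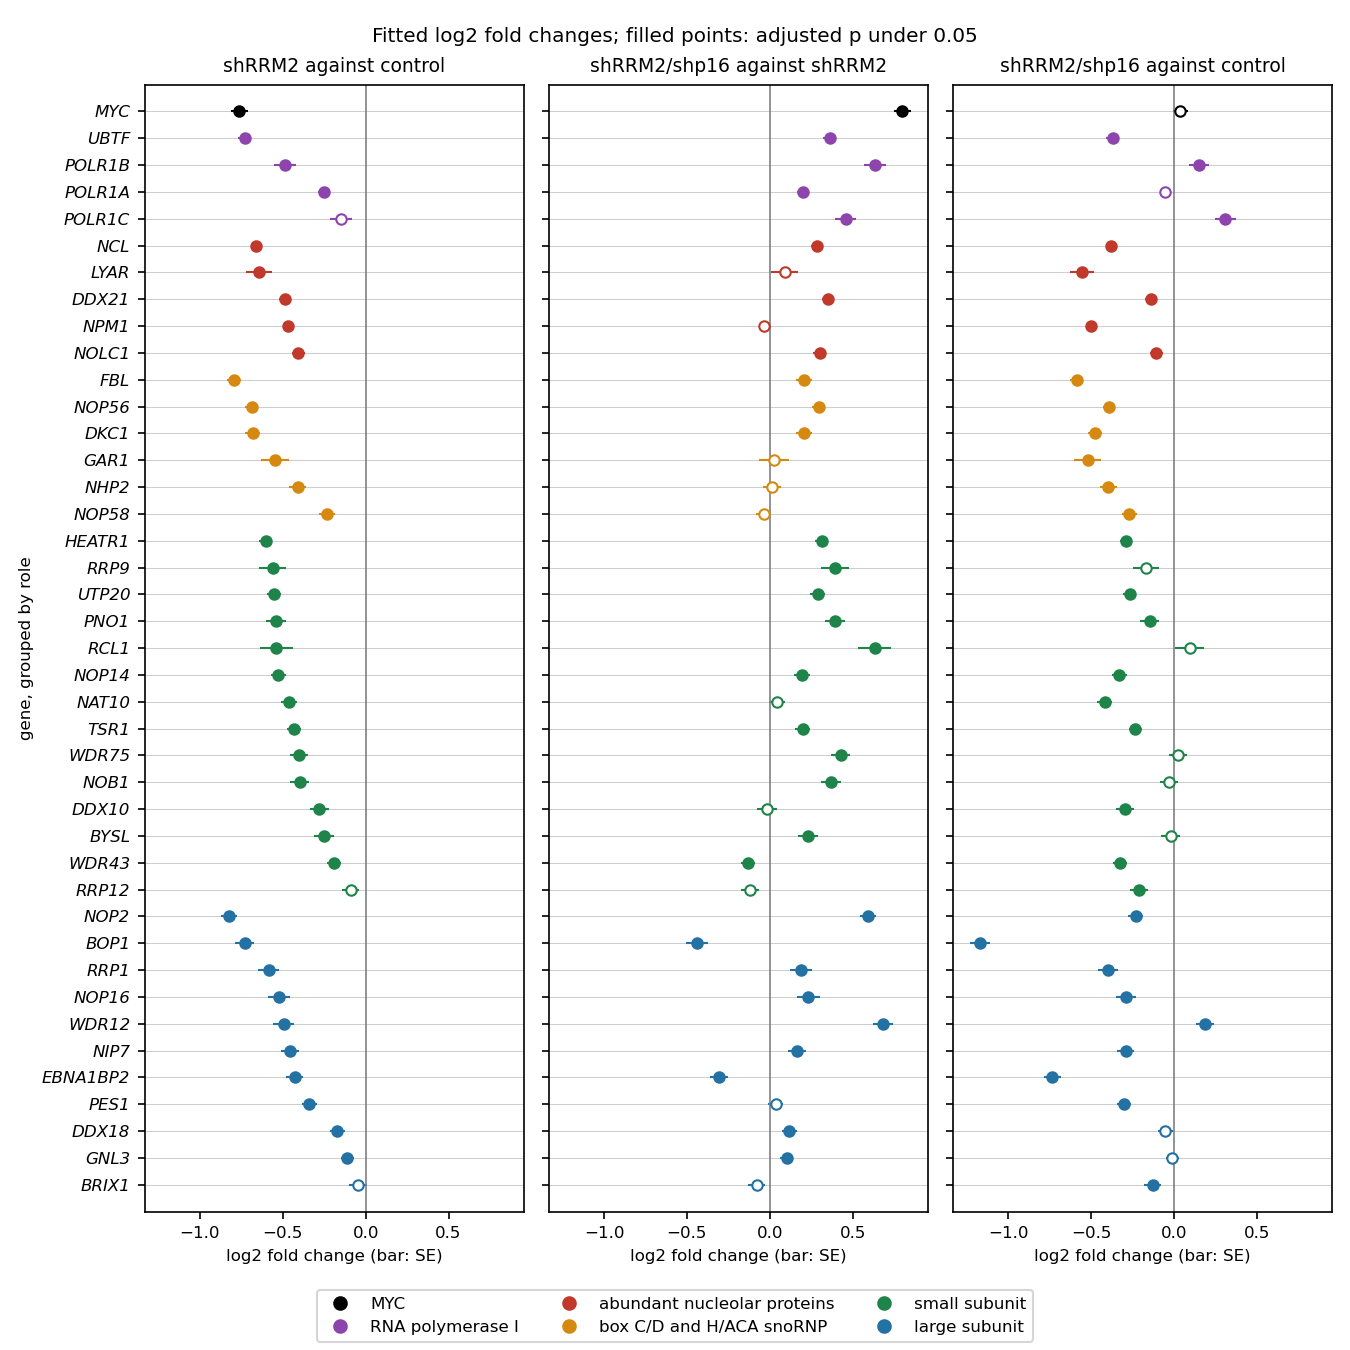
Fitted log2 fold change of each of the 41 tested genes (x axis, bar: SE) in the 3 comparisons, with genes on the y axis grouped and coloured by role and filled points for an adjusted p under 0.05. All points lie below 0 in shRRM2 against control, while in shRRM2/shp16 against control they run from BOP1 at -1.17 to POLR1C at 0.31.

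MYC itself (ENSG00000136997, chromosome 8, 127735434 to 127741434 on GRCh38) was at 58.1, 60.5 and 54.6 CPM in control, at 34.7, 34.1 and 33.6 in shRRM2 and at 60.7, 58.3 and 59.0 in shRRM2/shp16. The shRRM2 libraries were lower than all others, and the control and shRRM2/shp16 libraries overlapped. MYC fell by 0.76 ± 0.05 on the log2 scale (SE) in shRRM2, or 1.70-fold (edgeR adjusted p = 3.03e-17). It rose by 0.80 ± 0.05, or 1.74-fold, from shRRM2 to shRRM2/shp16 (edgeR adjusted p = 4.01e-18), the highest fold change of any member in that comparison. Against control, shRRM2/shp16 differed by 0.04 ± 0.05 (edgeR adjusted p = 0.49). That last value was past the threshold with other scalings, at 0.14 with total counts (adjusted p = 0.00674), 0.12 with upper-quartile factors (0.0199) and 0.14 with limma on RPKM (0.0125). The median of all tested genes itself moved by 0.10, 0.08 and 0.10 under these.

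**Figure D2:**
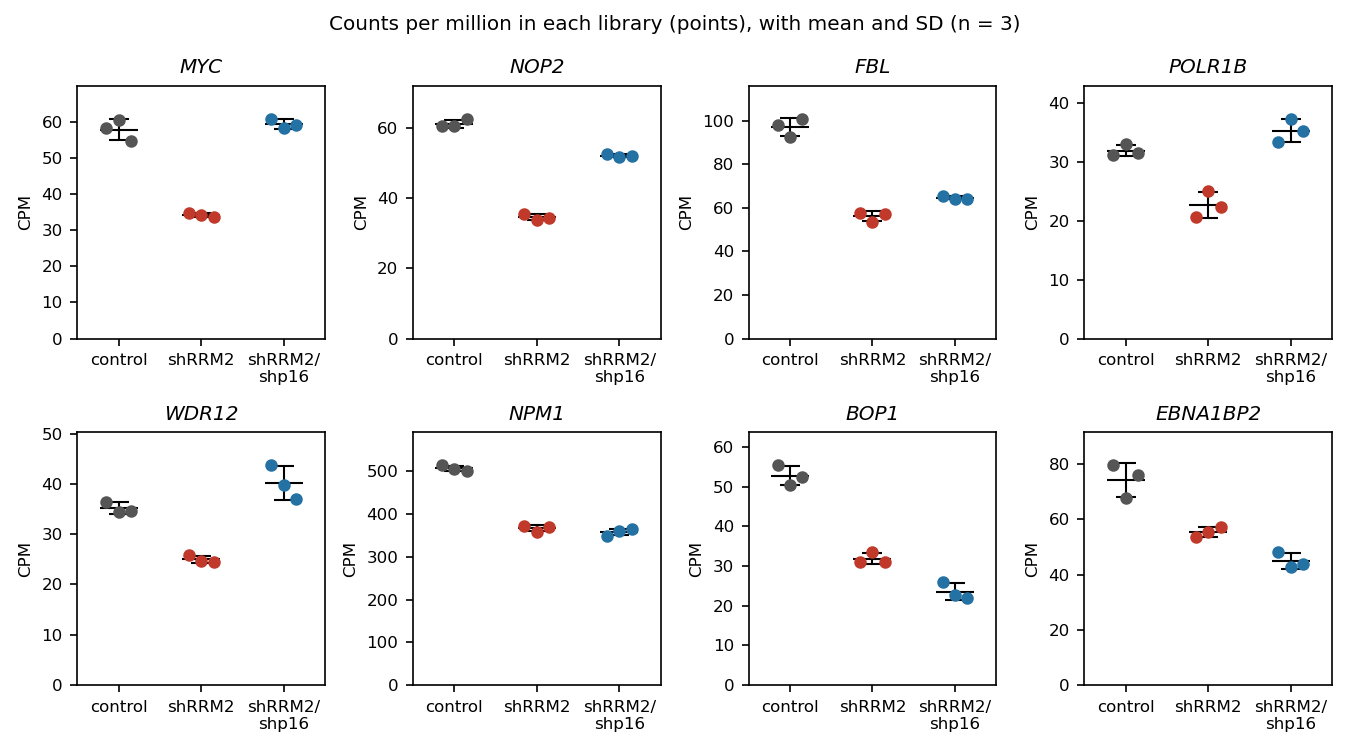
CPM (y axis, from 0) of 8 genes in the 9 libraries, as points by group on the x axis, with the mean and SD (n = 3) in black. In shRRM2/shp16, MYC was at 58.3 to 60.7, FBL at 64.2 to 65.5 and BOP1, below its shRRM2 libraries, at 21.9 to 26.0.

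RNA polymerase I transcribes the ribosomal RNA precursor; POLR1A and POLR1B are its largest subunits, POLR1C is shared with RNA polymerase III, UBTF binds the ribosomal DNA promoter, and RRN3 links the polymerase to it. Of the 4 tested, 3 fell in shRRM2, all 4 rose from shRRM2 to shRRM2/shp16, and against control 2 were higher and 1 lower in shRRM2/shp16. Beside these stand the all-gene shares of 31.8% lower in shRRM2, 31.9% higher in the next step, and 30.0% higher and 32.4% lower against control. UBTF was at 127, 126 and 130 CPM in control, at 73.2, 76.9 and 81.0 in shRRM2 and at 97.3, 102 and 97.4 in shRRM2/shp16. The 3 groups of UBTF did not overlap, and its log2 changes were -0.73 in shRRM2 against control, 0.36 from there to shRRM2/shp16 and -0.37 against control (edgeR adjusted p from 2.79e-20 to 2.0e-10).

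POLR1B (chromosome 2, 112541915 to 112577150) was at 31.3, 33.1 and 31.5 CPM in control, at 20.7, 25.1 and 22.4 in shRRM2 and at 33.4, 37.3 and 35.4 in shRRM2/shp16. Its lowest shRRM2/shp16 library lay just above its highest control library, and shRRM2 lay below both groups. POLR1B fell by 0.49 ± 0.07 (edgeR adjusted p = 2.1e-08) and then rose by 0.63 ± 0.06 (1.49e-11). The 0.15 ± 0.06 above control (edgeR adjusted p = 0.0281) was lost without control a (0.0645), control c (0.0698), shRRM2/shp16 b (0.18) or shRRM2/shp16 c (0.0578), and with DESeq2 (0.0749) or no low-count filter (0.104).

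POLR1C (chromosome 6, 43509702 to 43562419) was at 22.0, 22.8 and 22.4 CPM in control, at 20.6, 20.1 and 20.0 in shRRM2 and at 26.8, 29.4 and 26.9 in shRRM2/shp16. The groups did not overlap, although the lower value in shRRM2 missed the threshold, at -0.15 ± 0.07 (edgeR adjusted p = 0.0542). With no low-count filter that value was -0.19 and passed (edgeR adjusted p = 0.0332). POLR1C rose by 0.46 ± 0.06 from shRRM2 to shRRM2/shp16 (edgeR adjusted p = 6.0e-08) and was 0.31 ± 0.06 above control there (3.27e-05), the highest value of any member against control. POLR1A fell by 0.25 in shRRM2 and rose by 0.20 in shRRM2/shp16, where its value against control was -0.05 (edgeR adjusted p = 0.204). Leaving out control b brought that last value to an adjusted p of 0.049. RRN3, at 0.12 to 0.76 CPM, has 2 named pseudogenes in the annotation, and reads with more than 1 alignment were not counted to any gene. The symbol RRN3 also had 2 gene identifiers, and the identifier with the most reads was kept, so this value may not hold all of its RNA.

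The abundant nucleolar proteins fell together in shRRM2, 5 of 5: nucleolin (NCL), nucleophosmin (NPM1), which shuttles ribosomal particles and holds the outer nucleolus together, NOLC1, a chaperone of small nucleolar particles, the RNA helicase DDX21, and LYAR, a nucleolar zinc finger protein. From shRRM2 to shRRM2/shp16, 3 of them rose and 2 did not pass, and all 5 were lower in shRRM2/shp16 than in control. The shares of all tested genes called in these directions were 31.8%, 31.9% and 32.4%. NCL was at 698, 665 and 683 CPM in control, at 413, 416 and 465 in shRRM2 and at 528, 513 and 532 in shRRM2/shp16. Its groups did not overlap, with log2 changes of -0.66, 0.28 and -0.38 in the 3 comparisons in the order above (edgeR adjusted p from 4.43e-22 to 2.46e-10). NPM1 was at 514, 506 and 501 CPM in control, at 373, 358 and 370 in shRRM2 and at 350, 359 and 365 in shRRM2/shp16. The last 2 groups of NPM1 overlapped (log2 difference -0.04 ± 0.03, edgeR adjusted p = 0.263), and both lay below control, by 0.47 and 0.50 on the log2 scale. NPM1 has 45 named pseudogenes in the annotation, so some of its reads may have been lost as not unique.

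DDX21 and NOLC1 rose by 0.35 and 0.30 from shRRM2 to shRRM2/shp16 after falling by 0.49 and 0.41 in shRRM2. Both were lower than control in shRRM2/shp16, by 0.14 and 0.11, and both lost that call under total-count scaling (adjusted p = 0.3 and 0.969), upper-quartile factors and limma on RPKM. NOLC1 also lost it without control a (edgeR adjusted p = 0.0583) or without shRRM2/shp16 a (0.0571). LYAR was 0.64 lower in shRRM2 and 0.55 lower in shRRM2/shp16, each against control, with 0.09 between these groups (edgeR adjusted p = 0.349). With limma on RPKM that difference was 0.23 and passed (adjusted p = 0.0189).

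Box C/D particles place methyl groups on ribosomal RNA, with FBL as the methyltransferase and NOP56 and NOP58 as its core partners, while H/ACA particles make pseudouridine, with DKC1 as the synthase and NHP2 and GAR1 as partners. All 6 were lower than control in both shRRM2 and shRRM2/shp16, and 3 of 6 (FBL, NOP56 and DKC1) rose from shRRM2 to shRRM2/shp16. Called in these directions were 31.8%, 32.4% and 31.9% of all tested genes. FBL (ENSG00000105202, chromosome 19, 39834458 to 39846414) was at 98.0, 92.6 and 101 CPM in control, at 57.6, 53.4 and 57.2 in shRRM2 and at 65.5, 64.2 and 64.2 in shRRM2/shp16. Its 3 groups did not overlap, and the shRRM2/shp16 libraries lay closer to shRRM2 than to control. FBL fell by 0.79 ± 0.04 in shRRM2 (edgeR adjusted p = 4.81e-20), rose by 0.21 ± 0.05 in shRRM2/shp16 (1.37e-04) and was 0.59 ± 0.04 below control there (1.89e-16). NOP56 changed by -0.69, 0.30 and -0.39 in the 3 comparisons and DKC1 by -0.68, 0.21 and -0.48. NOP58, NHP2 and GAR1 fell by 0.23, 0.41 and 0.55 in shRRM2. Between shRRM2 and shRRM2/shp16 they differed by -0.04, 0.01 and 0.03, with edgeR adjusted p from 0.505 to 0.837. The summed level of the 6 genes was 428 to 448 CPM in control, 287 to 293 in shRRM2 and 322 to 329 in shRRM2/shp16.

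The 14 small subunit genes act in the processome that folds and cuts the precursor (NOP14, RRP9, UTP20, WDR43, WDR75, HEATR1, DDX10, RCL1, NAT10) or in later maturation and export (RRP12, TSR1, NOB1, BYSL, PNO1). In shRRM2, 13 of 14 fell. From shRRM2 to shRRM2/shp16, 10 rose and 1 fell, and against control 9 were lower in shRRM2/shp16 and 0 higher. All-gene shares were 31.8% lower in shRRM2, 31.9% higher and 29.1% lower in the next step, and 32.4% lower and 30.0% higher against control. With total-count scaling RCL1 and WDR75 were called higher than control, at 0.20 and 0.13 (adjusted p = 0.0478 and 0.0326).

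WDR75, a processome subunit, was at 38.2, 39.6 and 40.6 CPM in control, at 27.9, 30.6 and 30.7 in shRRM2 and at 38.5, 41.3 and 40.2 in shRRM2/shp16. The shRRM2 libraries were lowest and the other groups overlapped. WDR75 fell by 0.40 ± 0.06 (edgeR adjusted p = 4.14e-08), rose by 0.43 ± 0.06 (1.01e-08) and stood 0.02 ± 0.05 from control (0.719).

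RCL1, a cyclase-like processome protein, was at 13.8, 12.0 and 11.8 CPM in control, at 8.95, 7.61 and 9.58 in shRRM2 and at 13.4, 12.6 and 14.5 in shRRM2/shp16. Again the shRRM2 libraries were the lowest and the other groups overlapped. RCL1 fell by 0.54 ± 0.10 (edgeR adjusted p = 9.51e-06) and rose by 0.63 ± 0.10 (3.79e-07).

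PNO1, which guides the nuclease NOB1 to the end of the small subunit RNA, was at 34.0, 34.7 and 31.7 CPM in control, at 23.4, 22.4 and 23.5 in shRRM2 and at 29.4, 30.4 and 31.1 in shRRM2/shp16. The groups did not overlap, with shRRM2/shp16 just under control. PNO1 fell by 0.54 and rose by 0.39 (edgeR adjusted p = 2.39e-10 and 4.5e-07). The 0.15 below control (edgeR adjusted p = 0.0227) was lost without control a (0.0908), control b (0.0916) or shRRM2/shp16 a (0.0884). It was also lost with DESeq2, total counts, upper-quartile factors and limma on RPKM.

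RRP9, a protein specific to the U3 particle of the processome, was at 19.4, 20.1 and 19.4 CPM in control, at 11.7, 14.8 and 13.3 in shRRM2 and at 15.8, 19.1 and 17.3 in shRRM2/shp16. The 3 groups of RRP9 did not overlap. It fell by 0.56 and rose by 0.39 (edgeR adjusted p = 1.61e-07 and 1.08e-04), and its value against control, -0.17 ± 0.08, missed the threshold at 0.0523. Leaving out shRRM2/shp16 b brought it to 0.0156. It was also called lower with no low-count filter (adjusted p = 0.0383), only the 6 libraries compared (0.0493) and the replicate block (0.0286).

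WDR43 was the small subunit gene that fell again in shRRM2/shp16. It was at 86.3, 94.7 and 90.0 CPM in control, at 80.4, 74.2 and 82.4 in shRRM2 and at 70.5, 72.9 and 72.8 in shRRM2/shp16, and the groups did not overlap. It fell by 0.19 ± 0.04 and then by 0.13 ± 0.04 (edgeR adjusted p = 1.77e-04 and 0.00904), and was 0.32 ± 0.04 below control in shRRM2/shp16 (1.03e-08). Without shRRM2 c, the difference between shRRM2/shp16 and shRRM2 was -0.10 with an adjusted p of 0.0743. It also missed the threshold with total counts (0.165) and limma on RPKM (0.503), and the fall in shRRM2 missed it with upper-quartile factors (0.0812).

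Of the other small subunit genes, HEATR1, UTP20, NOP14 and TSR1 fell by 0.60, 0.56, 0.53 and 0.43 in shRRM2 and rose by 0.31, 0.29, 0.20 and 0.20 in shRRM2/shp16. They were still lower than control there, by 0.23 to 0.33. NOB1 and BYSL fell by 0.40 and 0.25 and rose by 0.37 and 0.23, and against control they stood at -0.03 and -0.02 (edgeR adjusted p = 0.651 and 0.778). NAT10, the acetyltransferase of small subunit RNA, and the helicase DDX10 fell by 0.46 and 0.28 and did not pass from shRRM2 to shRRM2/shp16, at 0.04 and -0.02. RRP12, an export factor, did not pass in the comparisons with shRRM2 (-0.09 and -0.12, edgeR adjusted p = 0.136 and 0.0509) and was 0.21 lower in shRRM2/shp16 than in control (0.000539). That last call was lost with limma on RPKM (-0.0994, adjusted p = 0.175) and with total counts (-0.11, 0.0705). RRP12 was called lower in shRRM2 without control b (0.0179) or with no low-count filter (0.0455), and lower in shRRM2/shp16 than in shRRM2 without shRRM2 c (0.0316) or shRRM2/shp16 a (0.0384). It was also called lower there with upper-quartile factors (adjusted p = 0.0199), only the 6 libraries compared (0.0274), at least 10 counts in every library (0.0316) and RLE size factors (0.0364).

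The 11 large subunit genes include the PES1, BOP1 and WDR12 complex, which is needed to process the large subunit RNA, the RNA methyltransferase NOP2, and the assembly factors NOP16, RRP1, BRIX1, DDX18, GNL3, NIP7 and EBNA1BP2. In shRRM2, 10 of 11 fell. From shRRM2 to shRRM2/shp16, 7 rose and 2 fell, and against control 8 were lower and 1 higher in shRRM2/shp16. Among all tested genes 31.8% fell in shRRM2, 31.9% rose and 29.1% fell in the next step, and 32.4% were lower and 30.0% higher against control.

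NOP2 (ENSG00000111641, chromosome 12, 6556863 to 6568691) had the largest fall of any member in shRRM2. It was at 60.6, 60.5 and 62.5 CPM in control, at 35.5, 33.8 and 34.4 in shRRM2 and at 52.5, 51.8 and 51.9 in shRRM2/shp16. The 3 groups did not overlap, and shRRM2/shp16 lay nearer control than shRRM2. NOP2 fell by 0.82 ± 0.05 (edgeR adjusted p = 4.46e-19), rose by 0.59 ± 0.05 (3.64e-14) and was 0.23 ± 0.04 below control in shRRM2/shp16 (1.31e-05).

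The members of the PES1, BOP1 and WDR12 complex went 3 ways in shRRM2/shp16. BOP1 (chromosome 8, 144262102 to 144291370) was at 55.3, 50.5 and 52.4 CPM in control, at 31.1, 33.6 and 30.9 in shRRM2 and at 26.0, 22.6 and 21.9 in shRRM2/shp16. Its groups did not overlap and shRRM2/shp16 was lowest. BOP1 fell by 0.73 ± 0.06 (edgeR adjusted p = 6.35e-15) and by a further 0.44 ± 0.06 (1.17e-07), and at -1.17 ± 0.06 it had the lowest value of any member against control (1.03e-21).

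WDR12 (chromosome 2, 202874782 to 203014798) was at 36.5, 34.4 and 34.7 CPM in control, at 25.8, 24.7 and 24.6 in shRRM2 and at 43.7, 39.7 and 37.1 in shRRM2/shp16. Here shRRM2 was lowest and shRRM2/shp16 highest, without overlap. WDR12 fell by 0.50 ± 0.06 (edgeR adjusted p = 3.53e-09) and rose by 0.68 ± 0.06 (3.13e-13). The 0.19 ± 0.06 above control (edgeR adjusted p = 0.00356) was 0.12 without shRRM2/shp16 a (0.0764). PES1 fell by 0.34 in shRRM2 and differed by 0.04 from there to shRRM2/shp16 (edgeR adjusted p = 0.516), 0.30 below control. With limma on RPKM the difference from shRRM2 was 0.13 and passed (adjusted p = 0.0348).

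EBNA1BP2 (chromosome 1, 43164175 to 43270936) was at 79.5, 67.6 and 76.1 CPM in control, at 53.6, 55.5 and 57.1 in shRRM2 and at 48.0, 42.7 and 43.9 in shRRM2/shp16. Like BOP1, it fell in both steps and its groups did not overlap. The changes were -0.43 ± 0.05 in shRRM2 against control (edgeR adjusted p = 9.84e-10), -0.31 ± 0.05 from there to shRRM2/shp16 (5.12e-06) and -0.73 ± 0.05 between shRRM2/shp16 and control (1.23e-16).

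RRP1, NOP16 and NIP7 fell by 0.59, 0.52 and 0.46 in shRRM2, rose by 0.19, 0.23 and 0.17 in shRRM2/shp16 and were 0.29 to 0.40 below control there. The rise of RRP1 missed the threshold without shRRM2 a (edgeR adjusted p = 0.0943) or shRRM2/shp16 b (0.064), or with DESeq2 (0.0539). DDX18 and GNL3 moved least among the called genes, by -0.17 and -0.11 in shRRM2 and by 0.12 and 0.10 in shRRM2/shp16. The fall of DDX18 was lost with limma on RPKM (-0.12, adjusted p = 0.151) and upper-quartile factors (-0.07, 0.208). Its rise was lost with DESeq2 (0.0847), limma on RPKM (0.0561) and upper-quartile factors (0.0695). It was also lost without shRRM2 b (0.171), shRRM2 c (0.0598), shRRM2/shp16 a (0.118) or shRRM2/shp16 b (0.0976), and the groups overlapped. GNL3, nucleostemin, lost its fall in shRRM2 without control a (0.148) or shRRM2 b (0.223), and with DESeq2 (0.0823), the filter of at least 10 counts in every library (0.0918), limma on RPKM (0.0944), total counts (0.166) and upper-quartile factors (-0.0045, 0.933). Its rise was lost with DESeq2 (0.108), RLE size factors (0.0567), the same filter (0.0509) and upper-quartile factors (0.105), and without shRRM2 b (0.227), shRRM2/shp16 a (0.0579) or b (0.137). Against control GNL3 in shRRM2/shp16 was at -0.01, and it turned to 0.10 with limma on RPKM (adjusted p = 0.0406) and to 0.095 with total counts (0.0371). BRIX1 did not pass in the comparisons with shRRM2 (-0.05 and -0.08). It was 0.13 below control in shRRM2/shp16 (edgeR adjusted p = 0.0314), a call lost without control c (0.132) or shRRM2/shp16 a (0.242) and with DESeq2, total counts, upper-quartile factors and limma on RPKM.

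Read counts of several members may miss reads or hold reads of other genes. Reads in sequence shared between genes can be left out as ambiguous. For genes on opposite strands this depends on the strand setting of the counting, which is not given in the sources used here. By GENCODE 29 on GRCh38, 16 members share exon sequence with a gene on the opposite strand, among them WDR12 with CARF, POLR1C with XPO5 and YIPF3, EBNA1BP2 with CFAP57 and PNO1 with AC017083.3, and 6 with a gene on the same strand, among them NOP2 with AC006064.6. A further shared feature is that 8 members hold 26 small nucleolar RNA genes inside them on the same strand, such as SNORD20 and SNORD82 in NCL and SNORD56, SNORD57 and SNORD86 in NOP56. These 8 hosts are NCL, NOP56, NOP58, DKC1, WDR43, TSR1, GNL3 and POLR1C, and their log2 changes in shRRM2 ran from -0.69 to -0.11. The 42 genes lie on 18 chromosomes.

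Per length, the levels of the members spanned a wide range. On the authors' RPKM scale, as the mean of the 8 libraries whose values match their counts, NPM1 was at 108 and NCL at 79.9, followed by DDX21 at 36.1 and FBL at 34.1. MYC was at 17.5, and the lowest tested members were WDR12 at 3.81 and RCL1 at 2.79. MYC was at 18.6 RPKM on average in control, at 11.4 in the pair of matching shRRM2 libraries and at 20.5 in shRRM2/shp16.

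Split by the E-box in their promoter windows, the members had similar medians. In shRRM2, 16 of 16 genes with the E-box fell, with a median of -0.53, and 17 of 19 tested genes without it fell, with a median of -0.47. From shRRM2 to shRRM2/shp16, 10 of 16 with it rose and 2 fell (median 0.20), and 15 of 19 without it rose and 0 fell (0.23). Among all tested genes 31.8% fell in shRRM2, and 31.9% rose and 29.1% fell from there to shRRM2/shp16. Against control the medians were -0.29 in both sets, and the 3 members higher in shRRM2/shp16 (POLR1B, POLR1C and WDR12) had no E-box in their windows. The difference between the sets was not tested.

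In the network around MYC, shares close to those of all tested genes changed in shRRM2, and more genes were higher than lower in shRRM2/shp16 against control. Of 14 tested genes of the MYC and MAX network, 5 rose and 4 fell in shRRM2 (median 0.06), 7 rose and 4 fell in shRRM2/shp16 against shRRM2 (0.09), and 8 were higher and 2 lower against control (0.17). These are 35.7% higher and 28.6% lower in shRRM2, beside 29.0% and 31.8% of all tested genes, and 57.1% and 14.3% against control, beside 30.0% and 32.4%. For the step from shRRM2 to shRRM2/shp16 the all-gene shares were 31.9% higher and 29.1% lower. MXD1, a MAX partner that represses MYC sites, rose by 0.71 in shRRM2, and MXD3 fell by 2.03 there and was 1.09 below control in shRRM2/shp16. MXI1, another repressor of this family, rose by 1.01 from shRRM2 to shRRM2/shp16 and MXD4 fell by 0.37.

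Other known targets of MYC, of which 19 were tested, mostly fell in shRRM2. There 17 fell and 1 rose (median -0.53), in shRRM2/shp16 11 rose and 7 fell against shRRM2 (0.16), and 18 were lower and 0 higher against control (-0.43). Of all tested genes, 31.8% were lower and 29.0% higher in shRRM2, and 32.4% lower and 30.0% higher in shRRM2/shp16 against control. For the step from shRRM2 to shRRM2/shp16 these shares were 31.9% higher and 29.1% lower, so the 36.8% of targets that fell lay near the all-gene share. PTMA, prothymosin alpha, fell by 1.27 and rose by 0.90, while CCND2, cyclin D2, rose by 1.51 and fell by 1.78. SRM, spermidine synthase, was 1.56 below control in shRRM2/shp16. Of 4 genes that MYC is known to repress, 3 rose in shRRM2, with CDKN1A, the kinase inhibitor p21, at 1.03. From shRRM2 to shRRM2/shp16, 3 of these fell, with GADD45A at -0.85, and CDKN2B rose by 0.38.

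Assembly factors outside the 42 genes fell in larger numbers than they rose in shRRM2, beside 31.8% lower and 29.0% higher of all tested genes. Of 10 other RNA polymerase I factors 7 fell and 1 rose (median -0.34), of 40 other small subunit factors 29 fell and 5 rose (-0.23), and of 44 other large subunit factors 37 fell and 3 rose (-0.30). Of 11 other small nucleolar particle factors 7 fell and 0 rose (-0.26), and of 14 RNA exosome genes 10 fell and 2 rose (-0.36). The strongest falls were those of POLR1E (-0.78), EMG1 (-0.68), RRS1 (-0.81), RUVBL1 (-0.69) and EXOSC8 (-1.21), each in its list. MPHOSPH10 (0.51) and NMD3 (0.37), an export adapter of the large subunit, rose.

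In shRRM2/shp16 against shRRM2 the all-gene shares were 31.9% (higher) and 29.1% (lower), and the all-gene median 0.01. The same lists gave 2 higher and 4 lower of 10 (other polymerase I factors, median 0.00), 17 and 10 of 40 (small subunit, 0.11), and 22 and 7 of 44 (large subunit, 0.11). They gave 5 and 1 of 11 small nucleolar particle factors (0.18) and 5 and 2 of 14 exosome genes (0.06), the last with 35.7% higher, near the all-gene share. KRR1 rose from 43.6 ± 0.83 CPM (SD, n = 3) to 87.2 ± 2.74, FTSJ3 rose by 0.68 and EXOSC5 by 0.66 on the log2 scale, and SBDS, which releases a late large subunit factor, fell by 0.46. Against control, where 30.0% of all tested genes were higher and 32.4% lower, the lists gave in the same order 1 higher and 6 lower, 6 and 22, 4 and 27, 1 and 6, and 2 and 8, with POLR1E at -1.06, NOC4L at -0.83 and RRS1 at -0.80. The small subunit count depended on the scaling: 19 fell in shRRM2 with upper-quartile factors, and 10 were lower in shRRM2/shp16 than in control with total counts.

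**Figure D3:**
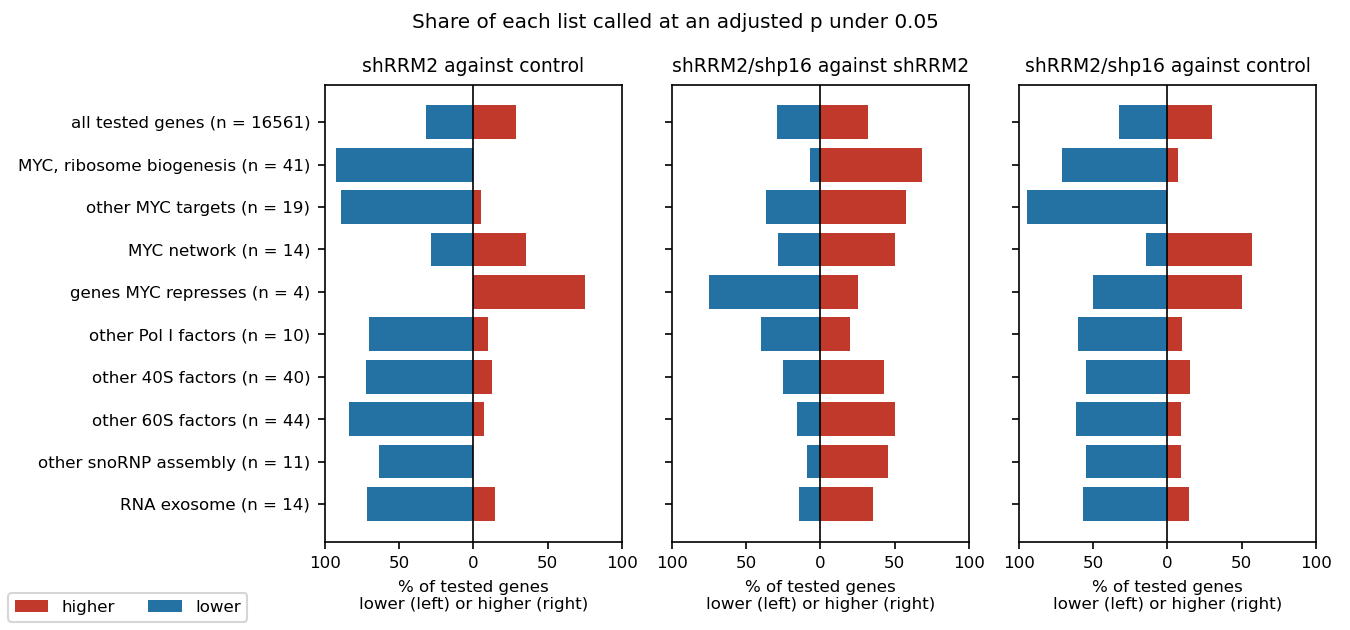
Share of the tested genes of each list (y axis, number tested in brackets) that were lower (left, blue) or higher (right, red) at an edgeR adjusted p under 0.05 (x axis, percent), in the 3 comparisons. The MYC and ribosome biogenesis genes reach 92.68% lower in shRRM2 against control, beside 31.8% of all tested genes.

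In the authors' deposited table, which compares shRRM2/shp16 with shRRM2, 13 members were significant and higher and 2 were significant and lower, of 42. Of the 16561 genes tested here, 14.9% are significant and higher and 13.6% significant and lower in the authors' deposited table. In the authors' deposited table MYC stood at a log2 fold change of 0.92 (q = 0.000444), WDR12 at 0.88 (q = 0.000444) and NOP2 at 0.55 (q = 0.000444). BOP1 at -0.42 (q = 0.00121) and EBNA1BP2 at -0.27 (q = 0.00226) were the lower members in the authors' deposited table, which gives WDR43 at -0.17 (q = 0.361).

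Markers of fibroblasts were high in every library, 7 of 7, with COL1A1 at 9257 to 13681 CPM. Their summed level was 26795 to 27659 CPM in control, 26213 to 27013 in shRRM2 and 22053 to 22654 in shRRM2/shp16. Single markers moved in both directions. In shRRM2 against control 5 were lower and 2 higher, from DCN at -0.71 to COL1A2 at 0.18. In shRRM2/shp16 against control 5 were also lower and 2 higher, from VIM at -1.32 to COL3A1 at 1.08. The all-gene shares were 31.8% lower and 29.0% higher, and 32.4% lower and 30.0% higher. Of the markers of epithelial cells, leukocytes and endothelium, KRT5 and CD3E had no read, KRT14 and PTPRC at most 2 and CDH5 at most 1. Others were detected, KRT8 at 241 to 599 reads, KDR at 17 to 85, CD68 at 30 to 53 and LYZ at 22 to 47 per library. In shRRM2/shp16 against shRRM2 the endothelial receptor gene KDR rose by 1.43 ± 0.22 and KRT8 fell by 1.28 (edgeR adjusted p = 3.24e-07 and 4.59e-20). LYZ rose by 0.93 in shRRM2 and fell by 0.49 in shRRM2/shp16 (edgeR adjusted p = 0.000383 and 0.0424), and CDH1, at 4 to 14 reads, rose by 1.08 in shRRM2 (0.0194). The summed epithelial level was 25.6 to 27.6 CPM in control, 31.3 to 36.5 in shRRM2 and 14.6 to 15.1 in shRRM2/shp16, nearly all of it KRT8. Contractile genes, mostly ACTA2 and CNN1, summed to 931 to 964, 754 to 783 and 262 to 275 CPM in the same order, and the part of these shifts in the members' values was not tested.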

How the data were processed

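RNA was measured in 9 IMR90 libraries, 3 per group. Per the labels' protocols, total RNA was DNase-treated and stranded libraries were made after removal of ribosomal RNA. For each library the authors deposited a file of read counts by Ensembl gene, with tally lines like those of HTSeq. The submitters' processing notes name TopHat2 2.0.9, Cufflinks 2.0.2, Cuffdiff and GRCh38, and give no role. Neither the strand setting of the counting nor the annotation release is given in the sources used here. The authors also deposited a log2 RPKM column per library. Set against the counts, its values equal log2(x + 1), with x the library-scaled reads per base of gene length. 8 of the 9 columns match their counts, and that of shRRM2 c (0.77% of 8215 genes matching within 0.1%) was left out. Per the file headers, the same table holds the authors' comparison of shRRM2/shp16 with shRRM2, with a log2 fold change, a p-value and a q-value per gene. There were 0 unmatched per-sample columns.

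The count test was that of edgeR 4.0.16 (R 4.3.3), with filterByExpr with groups (16561 genes, 99.82% of counts), TMM factors and a quasi-likelihood fit of all 9 libraries with 6 residual degrees of freedom. Tests were two-sided, adjusted by Benjamini-Hochberg over all tested genes, and called at an adjusted p under 0.05. The tally lines (17.6% to 28.8% of uniquely aligned reads outside genes, 3.74% to 6.02% ambiguous) stayed out of library sizes and tests. Reads carry no molecular identifiers, so counting error understates the error. The edgeR fit was run on simulated counts with genes changed in shRRM2 alone, far fewer than were called in these data. That run does not cover changes as broad as those seen here. Replicates of 1 group differed by 1.45 to 3.04 times the counting noise (chi-square per degree of freedom), so none was a copy of another.

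Members and lists were chosen with earlier results of these data known. Values per library are given for MYC, for the 3 highest and 3 lowest called members of each comparison, and for up to 8 members called in opposite directions in the first and the second comparison by at least 0.3 (log2). UBTF, NCL and NPM1 were added after their values were seen. From each other list, the highest and lowest called genes of a comparison could be named, and only some are; markers at or near 0, and the detected markers, were named after their values were seen. The result of 1 further list is not reported here. Alternatives were DESeq2 1.42.0, limma 3.58.1 on log2(RPKM + 0.1), other scalings, other filters, only the 6 libraries compared, a replicate block and leaving out each library. Gene positions are from GENCODE 29 and promoter windows from RefSeq (GRCh38.p14), matched by symbol.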

Additional observations from a re-analysis of the deposited data

How the results depend on the processing

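Over all settings tried, 35 to 40 members were lower in shRRM2 against control and 0 higher, 25 to 29 were higher and 2 to 4 lower in shRRM2/shp16 against shRRM2, and 24 to 30 were lower in shRRM2/shp16 against control. The number higher in that last comparison, 3, was 5 with limma on RPKM and 7 with total gene counts, which also moved the median of all tested genes by 0.10 each. GNL3 turned there from -0.01 to 0.0958 with limma on RPKM and to 0.095 with total gene counts, and the cause was not tested. Of all calls in that comparison 48.08% were higher, against 59.67% with total gene counts and 59.37% with limma. In shRRM2 against control 47.72% were higher, against 61.46% with upper-quartile factors, which moved the median by 0.11.

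Leaving out each library in turn gave 37 to 39 members lower in shRRM2, 25 to 28 higher and 3 to 4 lower from there to shRRM2/shp16, and 2 to 3 higher and 26 to 30 lower against control. The calls for all tested genes ranged over 9395 to 9571, 9420 to 9587 and 9679 to 9941.

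With the replicate letter as a replicate block, 38 members were lower in shRRM2, 28 higher and 4 lower from there to shRRM2/shp16, and 3 higher and 30 lower against control, with RRP12 (-0.12, adjusted p = 0.0395) and RRP9 (-0.18, adjusted p = 0.0286) added. Deviations of libraries sharing a letter correlated at -0.02 to 0.049, so no deviation shared by letter was detected. The labels do not say whether libraries of a letter were handled together, and these values cannot settle it. Depth limits RRN3, with at most 12 reads, and RCL1, the lowest tested member in CPM.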
